A study of Mus musculus with 4 samples.

Results

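The TGF-β and activin genes described here are 10 genes chosen by symbol from the 32285 genes counted: the ligands Tgfb1, Tgfb2, Tgfb3 and Inhba, the latency and matrix proteins Ltbp1 and Ltbp2, the receptors Tgfbr1, Tgfbr2 and Tgfbr3, and the target Tgfbi. All 10 were listed in every library and all 10 reached the minimum mean level of 5 CPM (UMIs scaled to 1000000) used for comparisons. Tgfbi reached it only through iWAT_DFAT and was below 5 CPM in each other library. The study cultured cells from the inguinal (iWAT) and the epididymal (eWAT) white adipose tissue of chow-fed male C57BL/6J mice and asked how de-differentiated fat (DFAT) cells differ from adipose stem and progenitor cells of the same depot. DFAT cells came from floating adipocytes placed in flasks filled with medium (ceiling culture), and the SVF cells, named ASPCs in the study, came from the pelleted stromal vascular fraction. Single-cell RNA sequencing with 10x 3′ chemistry gave 1 library per condition: iWAT_DFAT, eWAT_DFAT, iWAT_SVF and eWAT_SVF. The age of the mice and the number pooled per library are not given in the sources used here, no drug or inducer of differentiation is named for these cultures, and live cells were taken by 7-AAD sorting with no marker of adipocyte origin. In separate ceiling cultures the study traced labelled eWAT adipocytes, and most spindle-shaped DFAT cells kept the label. It also reports no labelled cells in DFAT cultures from mice whose ASPCs carried the label.

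TGF-β ligands are secreted as latent complexes that LTBP proteins tether to the extracellular matrix, and activin A, a dimer of the Inhba product, belongs to the same superfamily. Both signal through paired type I and type II serine/threonine kinase receptors that phosphorylate SMAD2 and SMAD3, and betaglycan, encoded by Tgfbr3, presents the ligand TGF-β2 and is a co-receptor for inhibin. In adipose tissue these ligands are known to restrain the differentiation of preadipocytes into adipocytes and to promote matrix production and myofibroblast genes.

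Cells were barcodes with 5000 to 75000 UMIs (unique molecular identifiers, each standing for 1 captured RNA molecule), 200 to 7500 genes and under 10% mitochondrial UMIs. This left 7629, 6464, 7424 and 6745 cells in the iWAT_DFAT, eWAT_DFAT, iWAT_SVF and eWAT_SVF libraries, with median UMIs of 22111, 27425, 24930 and 27617 per cell. Between 13 and 20 barcodes were shared by any pair of libraries. Cells with UMIs of 3 or more of the 8 markers listed for stromal cells made up 91.8% to 98.9% of a library, so most cells of every library carried stromal markers. Cells with at least 3 of 6 mesothelial markers numbered 547 in eWAT_SVF, 72 in eWAT_DFAT, 1 in iWAT_SVF and 0 in iWAT_DFAT, where 0 of 7629 cells allows a share of up to 0.0393%. Cells with at least 3 endothelial markers numbered 148 in eWAT_DFAT, 142 in eWAT_SVF, 53 in iWAT_SVF and 20 in iWAT_DFAT. Cells with at least 3 glial markers numbered 143 in iWAT_SVF, and 138 cells of eWAT_DFAT held at least 3 of 6 adipocyte markers. Levels below are the UMIs summed over the cells of a library and scaled to 1000000 (CPM), with exact 95% Poisson intervals. With 1 library per condition the single comparisons could not be tested across samples, and DFAT against SVF over both depots was not tested. All intervals therefore hold counting error only, and differences between mice or cultures cannot be told apart from those between conditions. In such sums a change in the share of a cell type and a change in RNA per cell also cannot be told apart, and the levels of different genes are not compared because 3′ UMI counts and gene length were not put on 1 scale.

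Of the ligands, Tgfb3 was low in both DFAT libraries, Tgfb1 was somewhat higher there, and Inhba was the only ligand among the 4 whose DFAT against SVF difference had opposite directions in the depots. The promoters of 3 ligands are shown first, because these genes had 3 different patterns over the libraries. Each sequence is the 250 bases before the annotated start, written 5′ to 3′ on the strand of the gene, from RefSeq sequence of build GRCm38.p6. They are Tgfb1 at chr7:25686752-25687001 on the plus strand, Tgfb2 at chr1:186705990-186706239 on the minus strand and Inhba at chr13:16011601-16011850 on the plus strand. Capitals mark the motifs found.
Tgfb1: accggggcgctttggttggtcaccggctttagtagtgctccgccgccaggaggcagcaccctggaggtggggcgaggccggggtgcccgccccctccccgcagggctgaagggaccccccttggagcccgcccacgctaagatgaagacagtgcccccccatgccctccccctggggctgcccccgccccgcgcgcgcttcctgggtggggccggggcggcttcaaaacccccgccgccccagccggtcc
Tgfb2: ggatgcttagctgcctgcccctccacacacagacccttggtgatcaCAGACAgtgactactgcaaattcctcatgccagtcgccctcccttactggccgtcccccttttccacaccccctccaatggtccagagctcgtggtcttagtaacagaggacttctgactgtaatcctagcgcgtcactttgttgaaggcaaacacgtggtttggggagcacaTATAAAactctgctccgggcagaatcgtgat
Inhba: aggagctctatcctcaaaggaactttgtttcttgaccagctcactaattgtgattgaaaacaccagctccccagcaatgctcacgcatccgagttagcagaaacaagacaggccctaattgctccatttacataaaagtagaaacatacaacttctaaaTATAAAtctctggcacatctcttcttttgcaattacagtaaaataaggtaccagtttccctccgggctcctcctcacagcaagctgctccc
The letters TATAAA, searched on the strand of the gene, lay 31 bases before the start of Tgfb2 and 91 bases before that of Inhba, with the position given for the first letter of the motif. They were found in 7.55% of 32536 windows of the same length. The SMAD-binding letters CAGACA, searched on both strands, lay in the Tgfb2 window and in 17.0% of all windows. The Tgfb1 window held neither, nor GTCTAGAC, the AP-1 letters TGACTCA, the TEAD letters GGAATG or a CArG box, all searched on both strands and found in 0.169%, 4.45%, 12.6% and 1.48% of all windows. Of the 10 genes, 8 had such a window. Among the 10 windows of these 8 genes, CAGACA was also present in the second of 2 windows of Tgfbr1 and, in 2 places, in the second of 2 windows of Ltbp1.

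Tgfb1 (ENSMUSG00000002603, chr7:25687002-25705077, plus strand, GRCm38) encodes the most studied TGF-β isoform. Its level was 43.2 CPM (95% interval 42.2 to 44.1) in iWAT_DFAT, 54.3 CPM (53.2 to 55.3) in eWAT_DFAT, 27.3 CPM (26.6 to 28.0) in iWAT_SVF and 32.2 CPM (31.4 to 33.0) in eWAT_SVF. Both DFAT libraries were above both SVF libraries, by 1.58-fold in iWAT and 1.69-fold in eWAT. These log2 ratios, 0.66 (0.61 to 0.71) and 0.75 (0.71 to 0.80), stayed under 2-fold. The share of all genes with both DFAT libraries above, or both below, both SVF libraries was not measured. This limit also holds for Tgfb2, Tgfb3 and Tgfbr1 below.

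Tgfb2 (ENSMUSG00000039239, chr1:186622792-186705989, minus strand) encodes the isoform that depends most on betaglycan for access to its receptor. It stood at 33.4, 42.7, 60.5 and 68.6 CPM in iWAT_DFAT, eWAT_DFAT, iWAT_SVF and eWAT_SVF. Here both DFAT libraries were below both SVF libraries, with log2 ratios of -0.86 in iWAT and -0.68 in eWAT. The eWAT direction changed when cells with cell cycle UMIs were left out, but not when only cells with at least 5 cell cycle genes were. In the 15.4% of eWAT_DFAT cells and 28.2% of eWAT_SVF cells without cell cycle UMIs the log2 ratio was 0.11. In iWAT it was -0.17 in such cells. The cells kept in eWAT_DFAT also had fewer UMIs, with a median of 18932 against 28802.5 in those left out. The part of depth was not tested. Throughout, cells with cell cycle UMIs are those with a UMI of Top2a, Mki67 or Cenpf, or with UMIs of at least 2 of 10 cell cycle genes. Cells called without them could still hold UMIs of a single other gene of that list.

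Tgfb3 (ENSMUSG00000021253, chr12:86056745-86079041, minus strand) encodes the third isoform. Its level was 11.0 CPM (10.5 to 11.5) in iWAT_DFAT and 13.5 CPM (13.0 to 14.1) in eWAT_DFAT, but 50.3 CPM (49.4 to 51.3) in iWAT_SVF and 57.8 CPM (56.7 to 58.9) in eWAT_SVF. Both DFAT libraries were below both SVF libraries, and the log2 ratios were -2.19 (-2.26 to -2.12) in iWAT and -2.09 (-2.16 to -2.03) in eWAT. Only 1.76% and 1.49% of the 10033 genes at the minimum level had a lower ratio in these comparisons. Tgfb3 was past 2-fold in both depots under each of the 14 alternative settings tried, but its size in eWAT was smaller without cells with cell cycle UMIs. The log2 ratio was then -1.30 in eWAT and -2.16 in iWAT, and iWAT_DFAT over eWAT_DFAT moved from -0.30 to -0.91. Here too the part of depth was not tested.

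Inhba (ENSMUSG00000041324, chr13:16011851-16031621, plus strand) encodes the βA subunit of activin A. It stood at 105 CPM (104 to 107) in iWAT_DFAT, 465 CPM (462 to 468) in eWAT_DFAT, 304 CPM (301 to 306) in iWAT_SVF and 240 CPM (238 to 242) in eWAT_SVF. The lowest and the highest level were thus both in DFAT libraries, 4.42-fold apart, while the SVF libraries lay between them and differed by 1.27-fold. Within iWAT the DFAT library was 2.89-fold below the SVF library, and within eWAT it was 1.94-fold above, just short of 2-fold. Inhba UMIs were unevenly spread over the cells. After each cell was thinned to 5000 UMIs, the variance over the mean (the Fano factor, 1 under counting alone) was 4.39 in iWAT_DFAT, 4.51 in eWAT_DFAT, 2.49 in iWAT_SVF and 2.15 in eWAT_SVF, the highest of the 10 genes in each library. This factor also grows with the level of a gene, so the rank does not show that Inhba was the most unevenly spread gene. In eWAT_SVF, Tgfb3 had a factor of 2.12 with 1915 UMIs after thinning, against 7408 UMIs of Inhba.

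**Figure D1:**
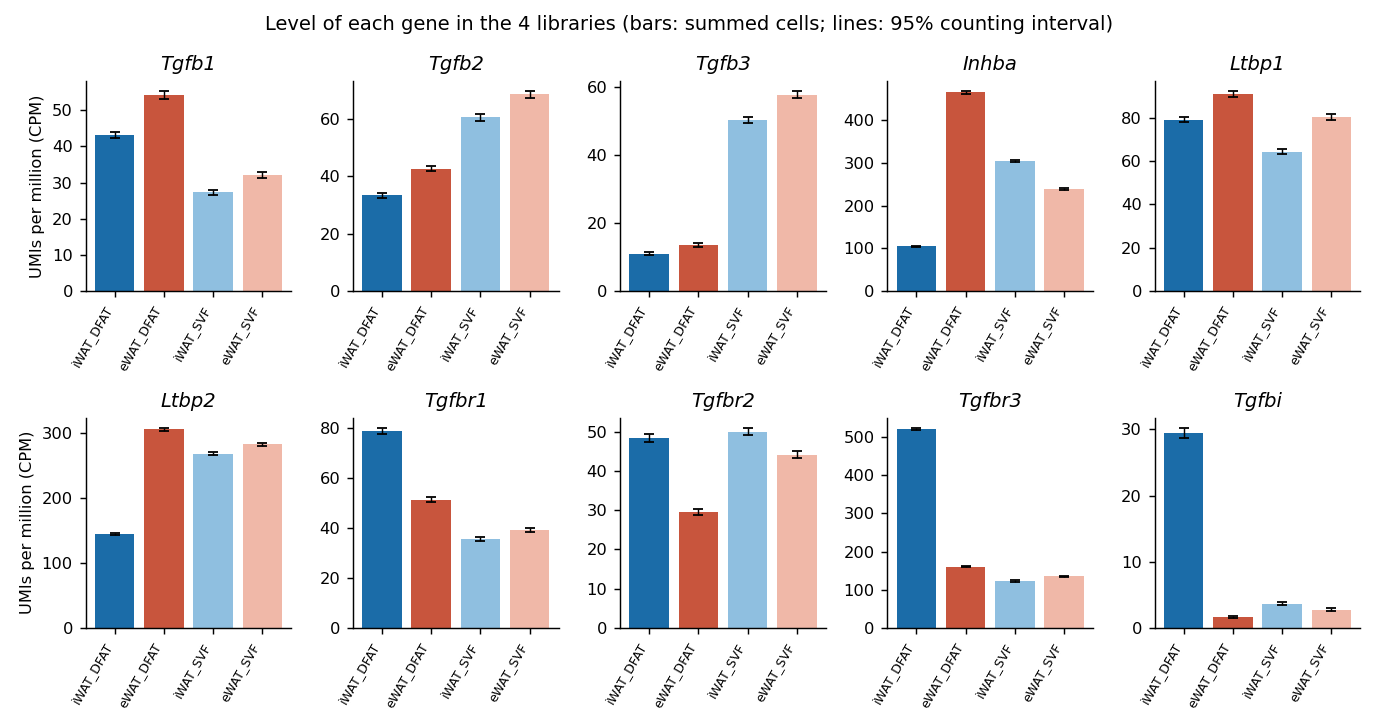
Level in CPM (y axis, from 0, own scale per panel) of each of the 10 genes in the 4 libraries (x axis), with 95% Poisson intervals for counting error. Tgfb3 is low in both DFAT libraries at 11.0 and 13.5 CPM, Inhba is lowest in iWAT_DFAT at 105 CPM and highest in eWAT_DFAT at 465 CPM, and Tgfbr3 and Tgfbi stand out in iWAT_DFAT at 521 and 29.5 CPM.

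The genes of latency and matrix differed in how much they varied. Ltbp1 (ENSMUSG00000001870, chr17:75005568-75392512, plus strand), which encodes a protein that binds latent TGF-β covalently, stood at 79.1, 90.9, 64.2 and 80.2 CPM in iWAT_DFAT, eWAT_DFAT, iWAT_SVF and eWAT_SVF. Its ratios in the 4 comparisons were at most 1.25-fold in size, and the intervals of iWAT_DFAT and eWAT_SVF overlapped. Ltbp2 (ENSMUSG00000002020, chr12:84783212-84876532, minus strand) encodes a microfibril protein that, unlike Ltbp1, does not bind latent TGF-β. It stood at 145 CPM in iWAT_DFAT against 306, 268 and 283 CPM in eWAT_DFAT, iWAT_SVF and eWAT_SVF. The iWAT_DFAT library alone was low, 2.11-fold below eWAT_DFAT. That ratio fell short of 2-fold, at a log2 of -0.86, in cells without cell cycle UMIs.

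The 3 receptor genes had 3 different patterns. Tgfbr1 (ENSMUSG00000007613, chr4:47353222-47414931, plus strand) encodes the type I receptor kinase ALK5. Its level was 78.9 CPM (77.7 to 80.2) in iWAT_DFAT, 51.3 CPM (50.3 to 52.4) in eWAT_DFAT, 35.8 CPM (34.9 to 36.6) in iWAT_SVF and 39.2 CPM (38.4 to 40.1) in eWAT_SVF. Both DFAT libraries were above both SVF libraries, by 2.21-fold in iWAT and 1.31-fold in eWAT. After subtraction of the median log2 ratio of genes of like genomic span, the iWAT log2 ratio went from 1.14 to 0.97, below 2-fold. Tgfbr2 (ENSMUSG00000032440, chr9:116084293-116175360, minus strand) encodes the ligand-binding type II receptor kinase. It stood at 48.5, 29.5, 50.1 and 44.2 CPM in iWAT_DFAT, eWAT_DFAT, iWAT_SVF and eWAT_SVF, so that eWAT_DFAT was lowest and the intervals of both iWAT libraries overlapped.

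Tgfbr3 (ENSMUSG00000029287, chr5:107106570-107289629, minus strand), the gene of betaglycan, was high in iWAT_DFAT only. It stood at 521 CPM (518 to 524) there, against 161 CPM (159 to 162) in eWAT_DFAT, 123 CPM (121 to 124) in iWAT_SVF and 135 CPM (133 to 137) in eWAT_SVF. The other 3 libraries lay within a narrow range, and iWAT_DFAT was 4.25-fold above iWAT_SVF and 3.25-fold above eWAT_DFAT. The DFAT against SVF log2 ratio was 2.09 in iWAT and 0.25 in eWAT, a difference of 1.84 with a counting interval of 1.81 to 1.87. At least 1 UMI was found in 97.0% of iWAT_DFAT cells, and in 82.5% after thinning to 5000 UMIs. In the other 3 libraries 73.5% to 82.5% of cells had a UMI, and 36.9% to 45.5% after thinning. No set of cells here is known to lack Tgfbr3, so the share that free RNA alone would give was not measured.

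Tgfbi (ENSMUSG00000035493, chr13:56609523-56639562, plus strand) encodes a secreted matrix protein first described as induced by TGF-β. Its level was 29.5 CPM (28.7 to 30.3) in iWAT_DFAT, 1.61 CPM (1.43 to 1.80) in eWAT_DFAT, 3.67 CPM (3.41 to 3.95) in iWAT_SVF and 2.72 CPM (2.49 to 2.96) in eWAT_SVF. The iWAT_DFAT library was 8.02-fold above iWAT_SVF and 18.3-fold above eWAT_DFAT. In the latter comparison 24 of the 10033 genes, Tgfbi included, had a ratio at least as high. Tgfbi was among these 10033 genes only through iWAT_DFAT, the library where it was high, so this rank is a description only. In free RNA, taken from droplets of 1 to 100 UMIs, Tgfbi stood at 27.7, 0.675, 5.32 and 1.55 CPM in the same library order as above, so its high level in iWAT_DFAT was also found outside cells.

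Most Tgfbi UMIs of eWAT_SVF lay in cells with markers of other cell types, and most of those of the other 3 libraries did not. In eWAT_SVF, 53.6% of its 537 UMIs were in the 547 cells with mesothelial markers, at 19.99 CPM, and 19.2% in the 35 cells with immune markers, at 106 CPM. In iWAT_SVF, 19.0% of its 732 UMIs were in the 143 cells with glial markers, at 63.6 CPM. Cells without 3 markers of any other list held 97.7% of its 5410 UMIs in iWAT_DFAT, 80.9% in eWAT_DFAT and 77.3% in iWAT_SVF, but 25.1% in eWAT_SVF. Across the cells without 3 markers of any other list, Tgfbi stood at 29.0, 1.37, 2.90 and 0.753 CPM in iWAT_DFAT, eWAT_DFAT, iWAT_SVF and eWAT_SVF. The eWAT log2 ratio of DFAT against SVF turned from -0.75 over all cells to 0.86 over these cells, and iWAT_SVF against eWAT_SVF moved from 0.43 to 1.95, whereas the iWAT ratio of DFAT against SVF was 3.32.

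**Figure D2:**
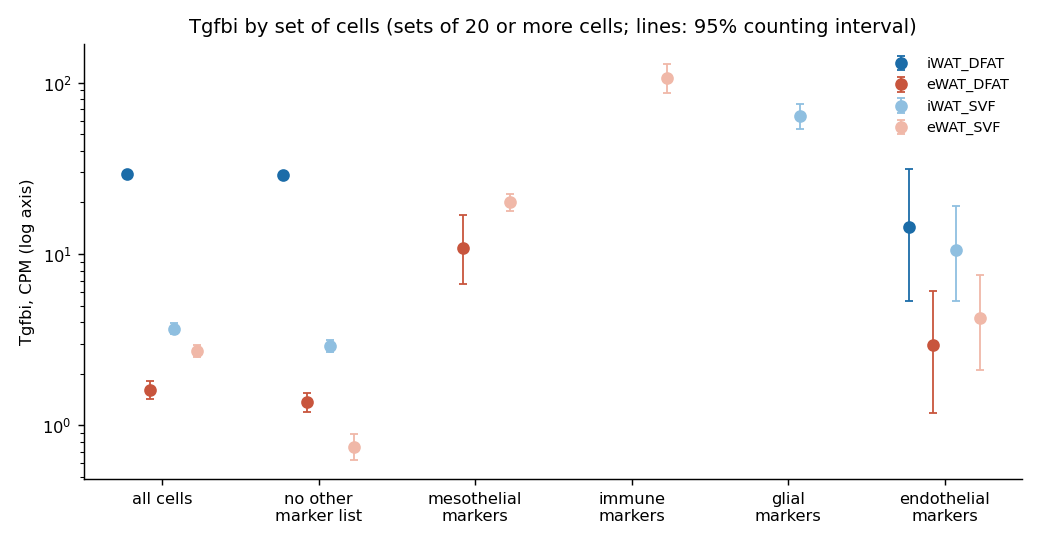
Tgfbi in CPM (y axis, log scale) by set of cells (x axis) and library (colour), with 95% Poisson intervals, for sets of at least 20 cells. The level in iWAT_DFAT is 29.5 CPM over all cells and 29.0 CPM without cells of other marker lists, while eWAT_SVF drops from 2.72 to 0.753 CPM and its mesothelial-marker and immune-marker cells stand at 19.99 and 106 CPM.

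The comparison of DFAT cells with ASPCs was read against all 10033 genes. In iWAT, 5 of the 10 genes were past 2-fold: Tgfbr1, Tgfbr3 and Tgfbi were higher in iWAT_DFAT, and Tgfb3 and Inhba were lower. Tgfbi reached the minimum mean level only through iWAT_DFAT, so its call as higher there was not independent of the filter. Of all genes, 13.7% were past 2-fold, 8.90% higher in iWAT_DFAT and 4.83% higher in iWAT_SVF. In eWAT, Tgfb3 was the only one of the 10 genes past 2-fold, and it was lower in eWAT_DFAT. Of all genes, 11.7% were past 2-fold there, 5.72% higher in eWAT_DFAT and 5.94% higher in eWAT_SVF, so the share of the 10 genes was near that of all genes. A second gene passed 2-fold under some settings, Tgfbi at -1.32 with each cell thinned to 5000 UMIs and Inhba at 1.05 without cells with at least 5 cell cycle genes. The median log2 ratio of the 10 genes was 0.13 in iWAT and 0.15 in eWAT, against 0.08 and 0.07 over all genes.

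Between the depots, iWAT_DFAT was compared with eWAT_DFAT and iWAT_SVF with eWAT_SVF. In iWAT_DFAT against eWAT_DFAT, 4 of the 10 genes were past 2-fold: Tgfbr3 and Tgfbi were higher in iWAT_DFAT, and Inhba and Ltbp2 were lower. Here too, Tgfbi reached the minimum mean level only through iWAT_DFAT. Of all genes, 11.0% were past 2-fold, 7.43% higher in iWAT_DFAT and 3.59% higher in eWAT_DFAT. In iWAT_SVF against eWAT_SVF, 0 of the 10 were past 2-fold, with log2 ratios from -0.32 (Ltbp1) to 0.43 (Tgfbi). Of all genes, 6.14% were past 2-fold there, 2.74% higher in iWAT_SVF and 3.40% higher in eWAT_SVF, so the count of 0 was near that share. Without cells with 3 markers of another list the count was 1, with Tgfbi at 1.95. The 4 comparisons share libraries, with iWAT_DFAT in a pair of them, and are not independent of each other.

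**Figure D3:**
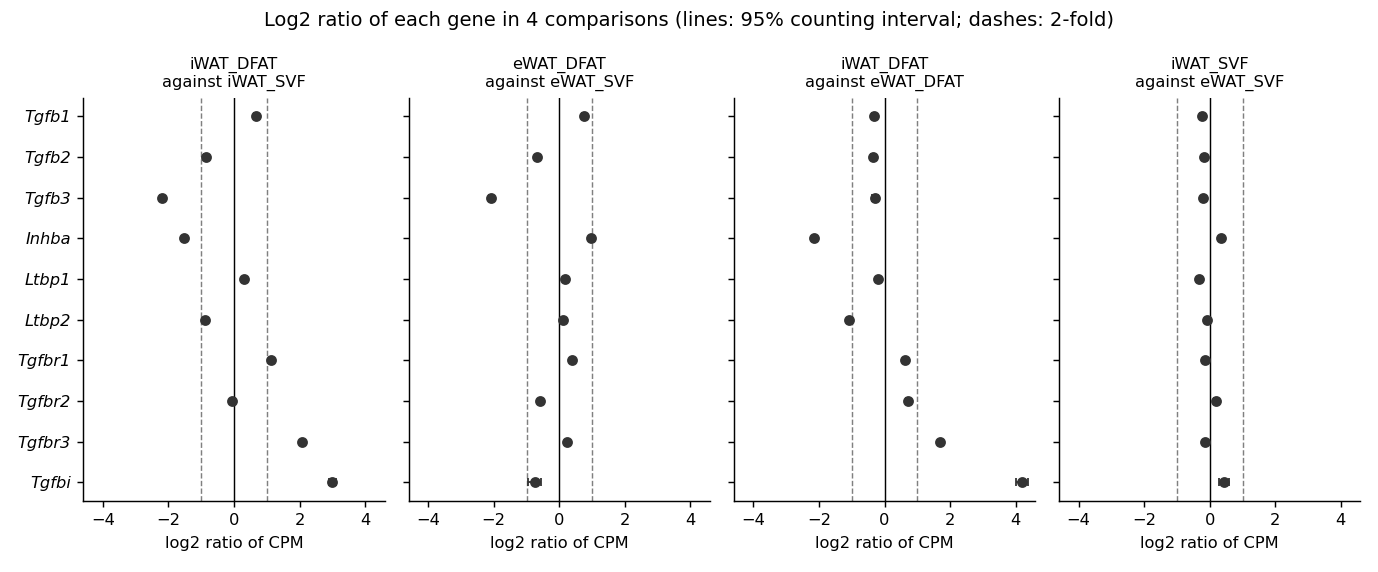
Log2 ratio of CPM (x axis) of each of the 10 genes (y axis) in the 4 comparisons (panels), positive where the library named first was higher, with exact conditional binomial 95% intervals for counting error, mostly smaller than the points. Between the SVF libraries all 10 genes lie inside the dashed 2-fold lines, while between the DFAT libraries they run from -2.14 for Inhba to 4.19 for Tgfbi.

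The DFAT against SVF difference had the same direction in both depots for 7 of the 10 genes. Inhba, Ltbp2 and Tgfbi had opposite directions, and over all genes this was the case for 34.8%. Some of these directions changed with the setting. Without cells with cell cycle UMIs, Tgfbr2 in iWAT turned from -0.05 to 0.14, Tgfb2 in eWAT from -0.68 to 0.11 and Ltbp2 in eWAT from 0.11 to -0.05. Without cells with at least 5 cell cycle genes, Tgfbr2 in iWAT stood at 0.09. With the span median subtracted, Ltbp1 in iWAT turned from 0.30 to -0.03 and Ltbp2 in eWAT to -0.03, and Tgfbi in eWAT turned as given above. The iWAT log2 ratio minus the eWAT log2 ratio was -2.49 for Inhba, with a counting interval of -2.51 to -2.46, and -1.004 for Ltbp2, with an interval of -1.03 to -0.98. A difference past 1 in size was found in 12.7% of all genes.

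The other genes of the pathway comprised 72 genes in 6 lists by role, of which 60 reached the minimum level. Past 2-fold were 23 of the 60 in iWAT (10 higher and 13 lower in iWAT_DFAT, 38.3%), 18 in eWAT (5 and 13, 30.0%), 21 between the DFAT libraries (14 and 7, 35.0%) and 5 between the SVF libraries (4 and 1, 8.33%). Of all genes, 13.7%, 11.7%, 11.0% and 6.14% were past 2-fold in the same comparisons. The DFAT libraries differed from each other in more of the listed genes than the SVF libraries did, and this order also held over all genes. The lists were written with earlier results of these data known, so their shares are a description only.

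Among the other ligands, Inhbb, which encodes the activin βB subunit, stood at 45.3, 63.7, 3.74 and 29.2 CPM in iWAT_DFAT, eWAT_DFAT, iWAT_SVF and eWAT_SVF. It was higher in both DFAT libraries, with log2 ratios of 3.60 in iWAT and 1.12 in eWAT, and unlike Inhba it was higher in iWAT_DFAT than in iWAT_SVF. Gdf15, a stress-induced cytokine of the superfamily, had log2 ratios of 0.41 and 0.54, and Inha, Inhbc, Inhbe, Mstn and Nodal were below the minimum level.

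Of 10 measured genes of latency and activation, 3 were past 2-fold in iWAT and 2 in eWAT, where 13.7% and 11.7% of all genes were. Emilin1 and Bmp1, a matrix protein that restrains TGF-β processing and a protease of procollagen, were higher in iWAT_DFAT than in iWAT_SVF at log2 ratios of 1.01 and 1.11, and Thbs1, an activator of latent TGF-β, was lower at -1.10. In eWAT_DFAT, Fbn1 and Itgb5, the genes of fibrillin-1 and an integrin subunit, were lower at -1.61 and -1.27. Fbn2 separated the depots in both kinds of library, at log2 ratios of iWAT over eWAT of 1.47 in DFAT and 2.71 in SVF libraries.

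Of 5 other receptor genes measured, the activin type II receptor gene Acvr2a was lower in DFAT than in SVF libraries by almost the same ratio in each depot, -1.54 and -1.53 on the log2 scale. Acvr1b, the gene of the activin type I receptor ALK4, was higher in iWAT_DFAT only, at 1.54 in iWAT and 0.07 in eWAT, and was higher than in eWAT_DFAT at 1.28. Eng, the gene of the co-receptor endoglin, was lower in iWAT_DFAT at -1.11, and Acvrl1 was lower in eWAT_DFAT at -1.08. Among Smad2, Smad3, Smad4 and Zfyve9, the gene of a SMAD anchor, Smad3 alone was past 2-fold, higher in iWAT_DFAT than in iWAT_SVF at 1.73 and than in eWAT_DFAT at 1.32. Of all genes, 13.7% were past 2-fold in iWAT, 11.7% in eWAT and 11.0% between the DFAT libraries.

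Of 13 measured genes that limit the signal, 3 were past 2-fold in iWAT and 2 in eWAT, where 13.7% and 11.7% of all genes were. Dcn, the gene of the matrix proteoglycan decorin, was higher in iWAT_DFAT at 3.22, whereas Pmepa1, which encodes an inhibitor of SMAD signalling, was lower at -1.45, as was Fstl3 at -1.24. In eWAT_DFAT Smurf2, a ubiquitin ligase, was higher at 1.32 and Ski, a SMAD co-repressor, was lower at -1.17. Smad7, the inhibitory SMAD, had the same log2 ratio of 0.64 in both depots, and Fst, the gene of the activin antagonist follistatin, had 0.50 in iWAT and 0.91 in eWAT.

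Genes known to be induced by TGF-β did not differ in 1 direction. Of 25 measured, 4 were higher and 8 lower past 2-fold in iWAT_DFAT, and 3 higher and 8 lower in eWAT_DFAT. Of all genes, 8.90% were higher and 4.83% lower in iWAT_DFAT, and 5.72% higher and 5.94% lower in eWAT_DFAT. Acta2, the smooth muscle actin of myofibroblasts, stood at 394 CPM in iWAT_DFAT and 2856 CPM in eWAT_DFAT, against 8763 CPM in iWAT_SVF and 9297 CPM in eWAT_SVF. The contractile genes Cnn1 and Tagln had log2 ratios of -5.95 and -3.94 in iWAT and of -2.34 and -0.92 in eWAT, and Eln, the gene of elastin, had -4.33 in iWAT and -4.89 in eWAT. In contrast, Il11, a fibroblast cytokine, was higher at 1.99 and 4.01, and Tnc, the gene of tenascin C, at 2.15 and 1.45. Tgfbi, unlike Acta2, was 8.02-fold higher in iWAT_DFAT, the library where Acta2 was lowest.

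**Figure D4:**
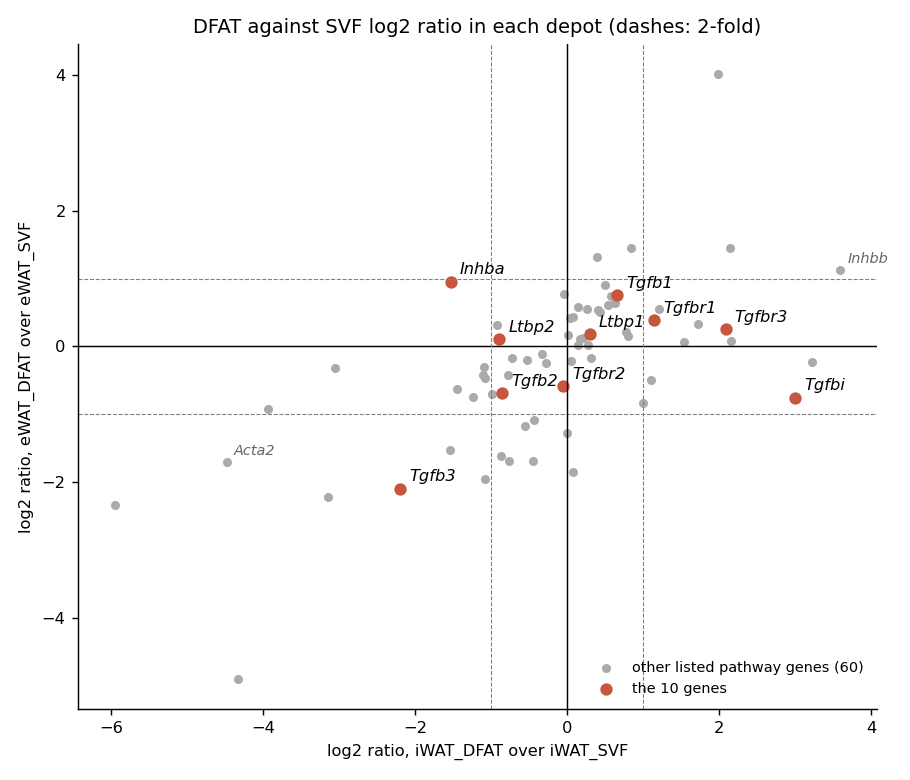
Log2 ratio of DFAT over SVF in iWAT (x axis) and in eWAT (y axis) for the 10 genes (red) and the 60 other listed genes at the minimum level (grey), with dashes at 2-fold. Tgfb3 lies past 2-fold on both axes at -2.19 and -2.09, Inhba lies in the upper left at -1.53 and 0.96, and Tgfbr3 and Tgfbi are displaced along the iWAT axis at 2.09 and 3.00.

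Within each library, the cells were ranked by the share of their UMIs in 7 contractile genes (Acta2, Tagln, Cnn1, Myl9, Tpm1, Tpm2 and Actg2), and the top 25% of cells were compared with the bottom 25%. These sets are ranges of a score and not cell types. Inhba, Tgfb2, Tgfb3 and Ltbp2 were higher in the top set in all 4 libraries, and Tgfbi, Tgfbr1, Tgfbr2 and Tgfbr3 were lower in all 4. Tgfbr1 in eWAT_DFAT, at -0.01, and Tgfb2 in iWAT_DFAT, at 0.14, were nearly level. Inhba stood at 198 against 58.4 CPM in iWAT_DFAT, 741 against 173 CPM in eWAT_DFAT, 412 against 183 CPM in iWAT_SVF and 337 against 108 CPM in eWAT_SVF. Its log2 ratios were 1.76, 2.10, 1.17 and 1.65, so that cells with more contractile UMIs had more Inhba in each library. Between libraries this order did not hold, since Inhba was highest in eWAT_DFAT, where Acta2 was below both SVF libraries.

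Tgfb3 had log2 ratios of top over bottom set of 0.73, 2.20, 1.63 and 2.65 in iWAT_DFAT, eWAT_DFAT, iWAT_SVF and eWAT_SVF. For Tgfbr3 they were -0.74, -1.36, -1.74 and -1.90 in the same order, and for Tgfbr2 -0.47, -0.52, -1.13 and -1.32. Between these sets the betaglycan and type II receptor genes thus had the opposite direction from Inhba and Tgfb3, and the smallest size of each was in iWAT_DFAT, except for Inhba. Median UMIs per cell were also higher in the top sets, at 25279 against 18611 in iWAT_DFAT and 30112 against 23121 in eWAT_SVF, and the cell cycle gene Top2a differed by log2 ratios of 0.65, 0.13, -0.14 and -0.34. The part of depth and cycle in these ratios was not tested. When cells with 3 markers of another list were left out before ranking, an alternative chosen after seeing the data, Inhba had 1.75, 1.94, 1.07 and 1.19. Tgfbi changed most, from -3.96 to -1.28 in eWAT_SVF.

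**Figure D5:**
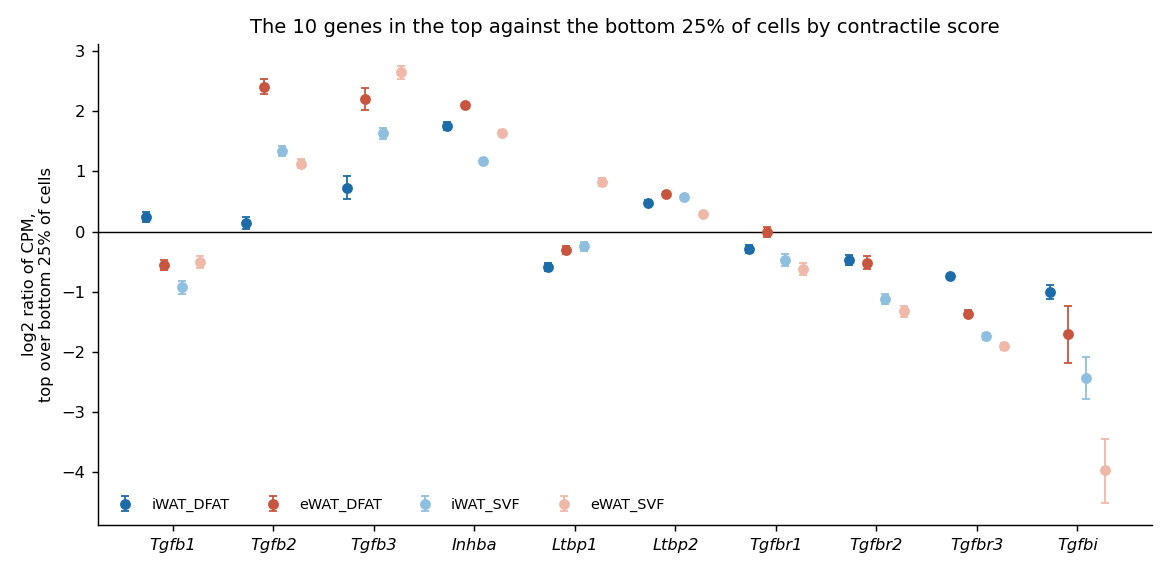
Log2 ratio of CPM between the top and the bottom 25% of cells by contractile score (y axis) for the 10 genes (x axis) in the 4 libraries (colours), with exact conditional binomial 95% intervals for counting error. Inhba lies between 1.17 and 2.10 in all 4 libraries, and Tgfbr3 between -1.90 and -0.74.

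Cycling cells had less Tgfbi and Tgfbr2 and more Ltbp1. Cells with UMIs of at least 5 of 10 cell cycle genes, 40.6% to 60.4% of a library, were compared with cells with 0 or 1 of them, a split chosen after seeing the data. Ltbp1 was higher in the former in all 4 libraries, at log2 ratios of 0.32, 0.66, 0.57 and 0.61 in iWAT_DFAT, eWAT_DFAT, iWAT_SVF and eWAT_SVF. Tgfb1, Tgfb3, Ltbp2, Tgfbr2 and Tgfbi were lower in all 4, Tgfbi by -1.07, -0.97, -1.14 and -1.35. Tgfb2 was lower in both DFAT libraries, at -1.22 and -1.07, but stood at -0.24 and 0.01 in the SVF libraries. Median UMIs were higher in the cycling cells, at 26435 against 17734 in iWAT_DFAT and 30718 against 24289 in eWAT_SVF, and the part of depth was not tested.

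In some libraries, cells with markers of other types differed from the remaining cells in some of the 10 genes. The 66 cells of eWAT_DFAT with at least 3 pericyte markers had 401 CPM of Tgfb2 and 147 CPM of Tgfb3, against 38.4 and 12.5 CPM in cells without 3 markers of any other list. The 28 such cells of iWAT_SVF had 64.9 and 80.6 CPM, against 60.1 and 50.7 CPM, so the pericyte-marker cells of the libraries were not alike in Tgfb2. Most of these cells, 54 of the 66 and 27 of the 28, had UMIs of exactly 3 of the 6 markers. In iWAT_DFAT 7 and in eWAT_SVF 12 cells had at least 3 pericyte markers, and their levels are not reported here. Cells with endothelial markers, 142 in eWAT_SVF and 53 in iWAT_SVF, had 150 and 116 CPM of Tgfbr2, against 39.6 and 49.7 CPM in cells without 3 markers of any other list. Their Tgfb1 level was 119 CPM in both libraries, against 30.6 and 26.1 CPM. The DFAT libraries also held cells with endothelial markers, 148 in eWAT_DFAT and 20 in iWAT_DFAT, whose levels are not reported here. Leaving out all cells with 3 markers of another list changed Tgfbi as given above and left each call past 2-fold in iWAT, in eWAT and between the DFAT libraries in place.

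The genes whose levels varied over cells most like each of the 10 genes were sought in the 8 genes with at least 20 CPM in all libraries, among 5120 genes at that level. Likeness was the lowest Pearson r over the 4 libraries, and points within a library share its depth and culture. Inhba varied most like Tagln (lowest r 0.32), Ccn2 (0.30) and Cald1 (0.29), which encode an actin-binding protein, a matricellular growth factor and caldesmon. Tgfbr3 had the highest values, with Slit3 (0.46) and Il1r1 (0.41) among its most alike genes, and Slit3, the gene of an axon guidance ligand, also led for Tgfbr1 (0.28). Ltbp2 had Col1a1 and Timp1 (both 0.24) among its most alike genes, and Ltbp1 most like Hmga2 (0.28), Asap1 (0.22) and Arhgap10 (0.21). For Tgfbr2 the leading gene was Fn1 (0.20), for Tgfb2 Vcl (0.16) and for Tgfb1 Gng11 (0.14), values too weak to be read in counts this sparse.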

How the data were processed

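Counts from 10x 3′ single-cell sequencing of 4 libraries were used. The whole-number UMI counts per gene and barcode were deposited by the authors before any cell call or normalization. The submitters' processing notes name Cell Ranger 7.0.0 and mm10, and the study's methods count intronic reads too. The file headers name Cell Ranger 7.1.0 for 3 libraries and version 4 for iWAT_SVF, so intronic reads may have been handled differently there. The median log2 ratio of iWAT_SVF over eWAT_SVF rose from -0.01 in the tenth of genes with the shortest genomic span to 0.15 in the longest. For the pair of DFAT libraries, both counted by version 7.1.0, it ran from -0.06 to 0.33, and for iWAT_DFAT over iWAT_SVF from -0.11 to 0.33.

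Cells were taken by the limits given above, the lower UMI limit replacing the 500 of the methods. At 500, 7796, 6988, 7843 and 7353 cells were left in iWAT_DFAT, eWAT_DFAT, iWAT_SVF and eWAT_SVF. The study's own cell number is higher for eWAT_DFAT and lower for the other 3 libraries, and its list of cells was not used here. Of the study's steps, CellBender, DoubletFinder and Harmony were not run. Doublets were kept in the main values. Scrublet, run in scanpy, marked 0 to 3 cells per library at its own threshold, which does not show that doublets were absent. An alternative setting left out the 334 to 466 cells per library with the highest Scrublet scores. The 10 genes, the lists and the rules were chosen with earlier results of these data known. Genes named are the 10, the 3 most like each over cells, the 2 with the largest log2 ratio in each role list and comparison at the minimum level, and Fst, Acta2, Smad7 and Inhbb; further list members are named where a count of 5 or fewer is given or their levels were compared, and these were chosen after their values were seen. Some genes that these rules name are not reported here. Intervals of ratios are exact conditional binomial ones at 95%, and shares of cells are per library. Alternatives changed the limits on UMIs, genes and mitochondrial UMIs, the removal of doublets, cycling cells and cells of other types, the depth per cell, free RNA, the scaling, the averaging over cells, the minimum level and the correction for genomic span. The ratio and its interval were tested on simulated Poisson counts, which hold counting error only. That test could not show whether the intervals cover the uneven spread of UMIs over cells. Between 183664704 and 199357348 UMIs lay in the cells of a library. The upper limit for 0 cells uses 3 counts. Gene positions are from GENCODE M21 (GRCm38). The work was run in Python 3.11.15 with scanpy 1.11.5, scipy 1.17.1, matplotlib 3.10.9, pandas 2.3.3 and numpy 2.4.6.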

Additional observations from a re-analysis of the deposited data

Results flagged for a closer look

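Inhba, Ltbp2 and Tgfbi had opposite directions of DFAT against SVF in the depots, with counting intervals off 0 in each. Opposite directions were found in 34.8% of all 10033 genes, so 3 of 10 was near that share. The iWAT minus eWAT difference of the log2 ratios was -2.49 for Inhba, from -1.53 in iWAT and 0.96 in eWAT. For Ltbp2 it was -1.004, from -0.89 and 0.11, and for Tgfbi it was 3.76, from 3.00 and -0.75. With 1 library per condition the differences between depots were not tested. Inhba kept its opposite directions under each of the 14 alternative settings tried. Ltbp2 lost them, at an eWAT log2 ratio of -0.05, when cells with cell cycle UMIs were left out and, at -0.03, when the median of genes of like genomic span was subtracted. Tgfbi lost them, at an eWAT log2 ratio of 0.86, when cells with markers of other types were left out.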

How the results depend on the processing

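With 14 alternative settings, 560 log2 ratios of single genes were recomputed, of which 365 stayed within the counting interval of the main value, 195 moved out of it, and none of those past 2-fold changed direction. A changed minimum level cannot move the ratio of a single gene, so the ratios under that setting stayed by construction. In iWAT, 5 genes were past 2-fold under each setting except subtraction of the span median, where 6 were: Tgfb2 at -1.09 and Ltbp2 at -1.13 were added and Tgfbr1 at 0.97 was lost. In eWAT the count moved from 1 to 2 when cells with cell cycle UMIs were left out, when each cell was thinned to 5000 UMIs and when scaled cells were averaged, Tgfbi being added at -1.03, -1.32 and -1.26. It also moved to 2 when cells with at least 5 cycle genes were left out, a setting chosen after seeing the data, with Inhba added at 1.05. Between the DFAT libraries the count was 4, and 3 without Ltbp2 under both settings that leave out cycling cells. Between the SVF libraries it was 0, and 1 when cells with markers of other types were left out, with Tgfbi at 1.95. Below 2-fold, Ltbp1 of iWAT_DFAT over iWAT_SVF changed from 0.30 to -0.03 with the span median subtracted, and Tgfb2 of eWAT_DFAT over eWAT_SVF from -0.68 to 0.11 without cells with cell cycle UMIs. This setting also changed Ltbp1 of iWAT_DFAT over eWAT_DFAT from -0.20 to 0.11 and Tgfbr1 of iWAT_SVF over eWAT_SVF from -0.13 to 0.01, and Tgfb2 of iWAT_SVF over eWAT_SVF changed from -0.18 to 0.02 without cells with at least 5 cycle genes. The other changes of direction, of Ltbp2, Tgfbi and Tgfbr2, are given with these genes above. The causes of these moves were not tested. No paired test was run: DFAT and SVF libraries can be matched by depot, but this gives only 1 pair in each depot. No replicate could be left out, because each condition has 1 library and no replicate number beyond it. Among the genes whose log2 ratios were recomputed, Tgfbi had the smallest counts in eWAT_DFAT, iWAT_SVF and eWAT_SVF, with 299, 732 and 537 UMIs. In iWAT_DFAT it had 5410 UMIs, and Tgfb3 had fewer, with 2022.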
